A study of Rattus norvegicus with 9 samples.

Results

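The Rtl1-antisense cluster is a run of 5 miRNA hairpins, miR-431, miR-433, miR-127, miR-434 and miR-136, in the imprinted Dlk1-Dio3 region. Its members were taken as all rows of the deposited small RNA table named rno-miR-127, rno-miR-136, rno-miR-431, rno-miR-433 or rno-miR-434, whatever the arm. The rule gave 9 mature miRNAs of the 633 in the table, and all 9 had enough counts to be tested. Hippocampus was dissected from Sprague-Dawley rats, and 3 libraries were sequenced for each of 3 groups. Vehicle rats (VEH) received sterile saline for 14 and then 7 days. MK-801 rats received MK-801 (dizocilpine, which blocks the channel of NMDA receptors and serves in rodent models of schizophrenia) at 0.2 mg/kg once a day for 14 days, then saline for 7 days. MK-801+CLO rats had the same 14 days of MK-801 followed by 7 days of the atypical antipsychotic clozapine (CLO) at 10 mg/kg. All injections were intraperitoneal. The labels give the age as postnatal day 21 and also say that drug treatment began at 5 weeks. They mention 10 rats per group but not which rats went into a library, so a p-value here covers the spread of 3 libraries a group, part of which may be technical.

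As background, miRNAs are short RNAs cut from hairpin precursors. A hairpin can release a mature miRNA from its 5′ side (5p) and its 3′ side (3p), and bases 2 to 8 of the mature miRNA, the seed, do most of the pairing with target mRNAs. Rtl1 is a gene derived from a retrotransposon that is expressed from the paternal chromosome. The 5 hairpins lie on the opposite strand, are expressed from the maternal chromosome, and give miRNAs that pair perfectly with the Rtl1 transcript and direct its cleavage. The region's miRNAs are abundant in brain.

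In the RefSeq annotation of rat assembly GRCr8 the 5 hairpins lie on the plus strand of chromosome 6 over 4968 bases, and all 5 fall inside the Rtl1 gene (chr6:134325231-134335780). The first begins 20199 bases past the end of the noncoding RNA gene Meg3. The hairpins are shown in genome order, 5′ to 3′, from RefSeq, because the arms compared here come from the same molecule. Capitals mark the mature miRNAs counted in the table.
miR-431 hairpin, chr6:134326449-134326562: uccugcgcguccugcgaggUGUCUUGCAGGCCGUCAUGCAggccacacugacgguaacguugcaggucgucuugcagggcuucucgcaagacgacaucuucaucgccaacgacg
miR-433 hairpin, chr6:134327358-134327450: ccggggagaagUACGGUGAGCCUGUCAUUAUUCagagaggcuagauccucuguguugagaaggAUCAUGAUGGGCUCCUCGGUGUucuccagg
miR-127 hairpin, chr6:134328454-134328550: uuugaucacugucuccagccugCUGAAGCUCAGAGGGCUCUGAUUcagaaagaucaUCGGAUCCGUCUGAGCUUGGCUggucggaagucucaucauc
miR-434 hairpin, chr6:134330402-134330482: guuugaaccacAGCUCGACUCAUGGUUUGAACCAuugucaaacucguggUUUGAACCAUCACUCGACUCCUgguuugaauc
miR-136 hairpin, chr6:134331335-134331416: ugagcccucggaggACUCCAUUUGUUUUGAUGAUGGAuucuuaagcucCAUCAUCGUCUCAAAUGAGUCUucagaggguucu

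The mature miRNAs follow with the seed in capitals, since the seed decides which targets members could share. Of the 9 sequences in the deposited table, 7 had a RefSeq entry of the same name and all 7 were identical to it. Those of miR-127-5p and miR-136-5p are from the deposited table and were found in the RefSeq hairpins.
miR-431: uGUCUUGCaggccgucaugca
miR-433-5p: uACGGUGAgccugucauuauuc
miR-433-3p: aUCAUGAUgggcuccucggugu
miR-127-5p: cUGAAGCUcagagggcucugauu
miR-127-3p: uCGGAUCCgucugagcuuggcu
miR-434-5p: aGCUCGACucaugguuugaacca
miR-434-3p: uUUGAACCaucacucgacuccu
miR-136-5p: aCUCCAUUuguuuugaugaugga
miR-136-3p: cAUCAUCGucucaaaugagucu
The 9 miRNAs carried 9 different seeds, and no other miRNA of the table had any of them. Their lengths ran from 21 to 23 bases, so counts can be set side by side without a length term. Their GC content ran from 34.8% in miR-136-5p to 59.1% in miR-127-3p.

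Levels are given as CPM, each count scaled by the total miRNA count of its library, and library totals ran from 10665718 to 18284905 counts. The 9 members together took 15.9% to 20.4% of all miRNA counts in a library. By group the share was 18.7% ± 1.95 in VEH, 17.96% ± 1.59 in MK-801 and 17.6% ± 1.57 in MK-801+CLO (SD, n = 3 each), and the groups overlapped. MiR-127-3p alone supplied 71.5% to 76.6% of the members' counts and miR-434-3p 20.2% to 25.4%. Over the 9 libraries rno-miR-127-3p had the highest mean of all 633 miRNAs, at 135014 CPM, and rno-miR-434-3p ranked 6 at 40146 CPM (the species prefix is left off below). MiR-136-3p followed at 2417 CPM, miR-434-5p at 1681 CPM, miR-136-5p at 532 CPM, miR-127-5p at 418 CPM, miR-433-3p at 339 CPM, miR-431 at 153 CPM and miR-433-5p at 58.1 CPM. This order held in each of the 9 libraries. The ranges over libraries overlapped between miR-136-5p and miR-127-5p and between miR-127-5p and miR-433-3p, and between no other neighbours in the order. MiR-127-3p stood 2029 to 2675 times above miR-433-5p, although their hairpins lie 1003 bases apart. Ligation and counting differ between small RNA sequences, so the order describes these libraries.

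**Figure D1:**
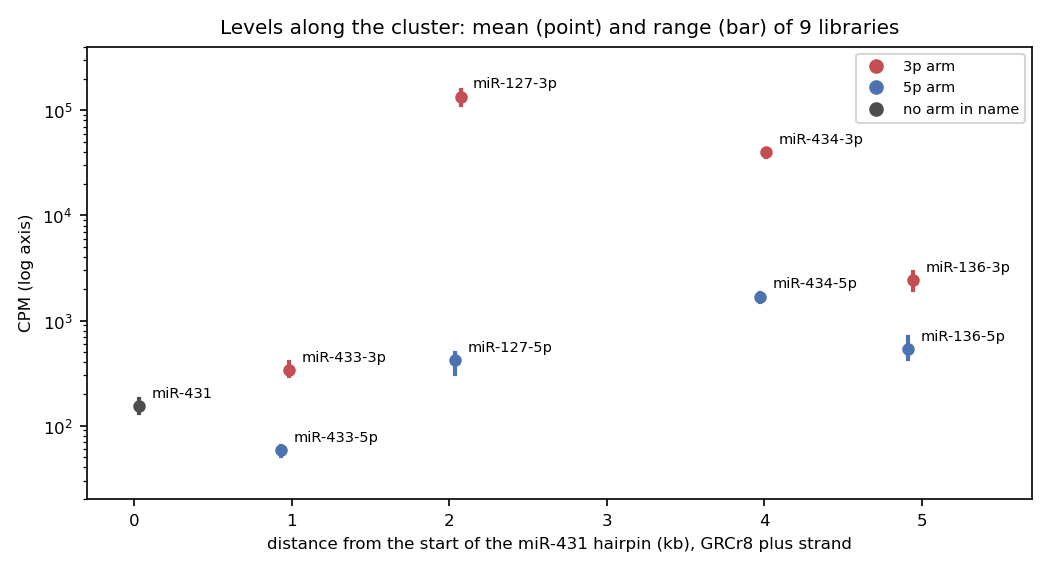
Mean level (point) and range over 9 libraries (bar) of each mature miRNA in CPM on a log axis, against distance from the start of the miR-431 hairpin in kb. The 3p arms of miR-127 and miR-434 stand at 135014 and 40146 CPM, and the other 7 members lie at or below 2417 CPM.

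As a check of the tissue, all 6 neuronal miRNAs listed (miR-124-3p, miR-9a-5p, miR-128-3p, miR-138-5p, miR-218a-5p and miR-137-3p) were present in every library, with a summed level of 121548 to 150168 CPM. Most of this sum was miR-9a-5p, at 73353 to 91869 CPM, while miR-124-3p stood at 2867 to 3862 CPM. The 5 miRNAs of muscle, liver and endocrine tissue summed to 74.7 to 259 CPM. VEH replicate 3 stood apart for the choroid plexus and ependymal list, at a sum of 12394 CPM against 2562 to 5800 CPM in the other libraries. Most of that sum was miR-204-5p, at 8583 CPM. Each miRNA of the list was highest in that library except miR-211-5p, at 10.4 CPM. VEH replicate 3 was not the lowest or highest of the 9 libraries for any member but miR-433-3p, where it was the highest. Its part in the results was not tested beyond leaving it out.

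MiR-127-3p was measured at 121816, 155629 and 143916 CPM in VEH replicates 1, 2 and 3. It stood at 144913, 141638 and 120325 CPM in the MK-801 replicates and at 132134, 113465 and 141289 CPM in the MK-801+CLO replicates. The highest library was a vehicle library and the lowest a clozapine library, but each group spanned most of the same range, with means of 140454 ± 17170.1, 135625 ± 13351 and 128963 ± 14181 CPM (SD, n = 3 each). The other arm, miR-127-5p, is the minor product. It was at 404, 487.1 and 430.2 CPM in VEH, at 429.7, 476 and 355 CPM in MK-801 and at 461, 311 and 413 CPM in MK-801+CLO. MK-801+CLO replicate 2 was again the lowest library and VEH replicate 2 the highest.

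MiR-434-3p varied least among the 9 members, with a coefficient of variation of 5.27% over the libraries. It stood at 38336, 41960 and 41401 CPM in VEH and at 38244, 40702 and 36139 CPM in MK-801. With clozapine it was at 41979, 40323 and 42227 CPM. MK-801 replicates 1 and 3 lay below all 3 clozapine libraries, and MK-801 replicate 2 lay between the lowest and the next of them. MiR-434-5p ranged from 1496 to 1843 CPM, with group means of 1691 ± 133 in VEH, 1648 ± 132 in MK-801 and 1704 ± 152 CPM in MK-801+CLO.

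The same locus also gives miR-3543, annotated by RefSeq on the minus strand across the miR-434 hairpin (chr6:134330369-134330483). The whole of miR-434-3p is complementary to it.
miR-3543: caggagucgagugaugguucaaa
MiR-3543 had 18 to 53 counts per library, so that miR-434-3p had 12177 to 23893 counts for each of its counts. The count table thus held very few reads assigned to the strand of miR-3543 in any of the 3 groups. MiR-3543 is no member and is shown for this strand comparison alone.

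MiR-136-5p varied most, with a coefficient of variation of 16.5%. It was at 435, 537 and 502 CPM in VEH, at 696, 621 and 481 CPM in MK-801 and at 587, 432.98 and 494.8 CPM in MK-801+CLO. MK-801 replicates 1 and 2 were the highest of the 9 libraries, while MK-801 replicate 3 lay inside the VEH range. MiR-136-3p was at 2206, 2653 and 2319 CPM in VEH, at 2555, 2742 and 1943 CPM in MK-801 and at 2915, 2098 and 2325 CPM in MK-801+CLO. The 3 groups overlapped, with means of 2393 ± 232, 2413 ± 418 and 2446 ± 422 CPM.

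MiR-433-3p was at 319, 380 and 403 CPM in VEH, at 322.9, 368 and 304 CPM in MK-801 and at 350, 294 and 310.1 CPM in MK-801+CLO. The 2 highest libraries were vehicle libraries, and VEH replicate 1 lay within the range of both drug groups. MiR-433-5p had a narrow range, from 51.4 to 63.9 CPM, and rested on 548 to 1089 counts. MiR-431, which is known for a role in axon growth of sensory neurons, was at 131, 155 and 164 CPM in VEH, at 147, 179 and 138 CPM in MK-801 and at 144, 174 and 150 CPM in MK-801+CLO. No group stood apart for either.

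**Figure D2:**
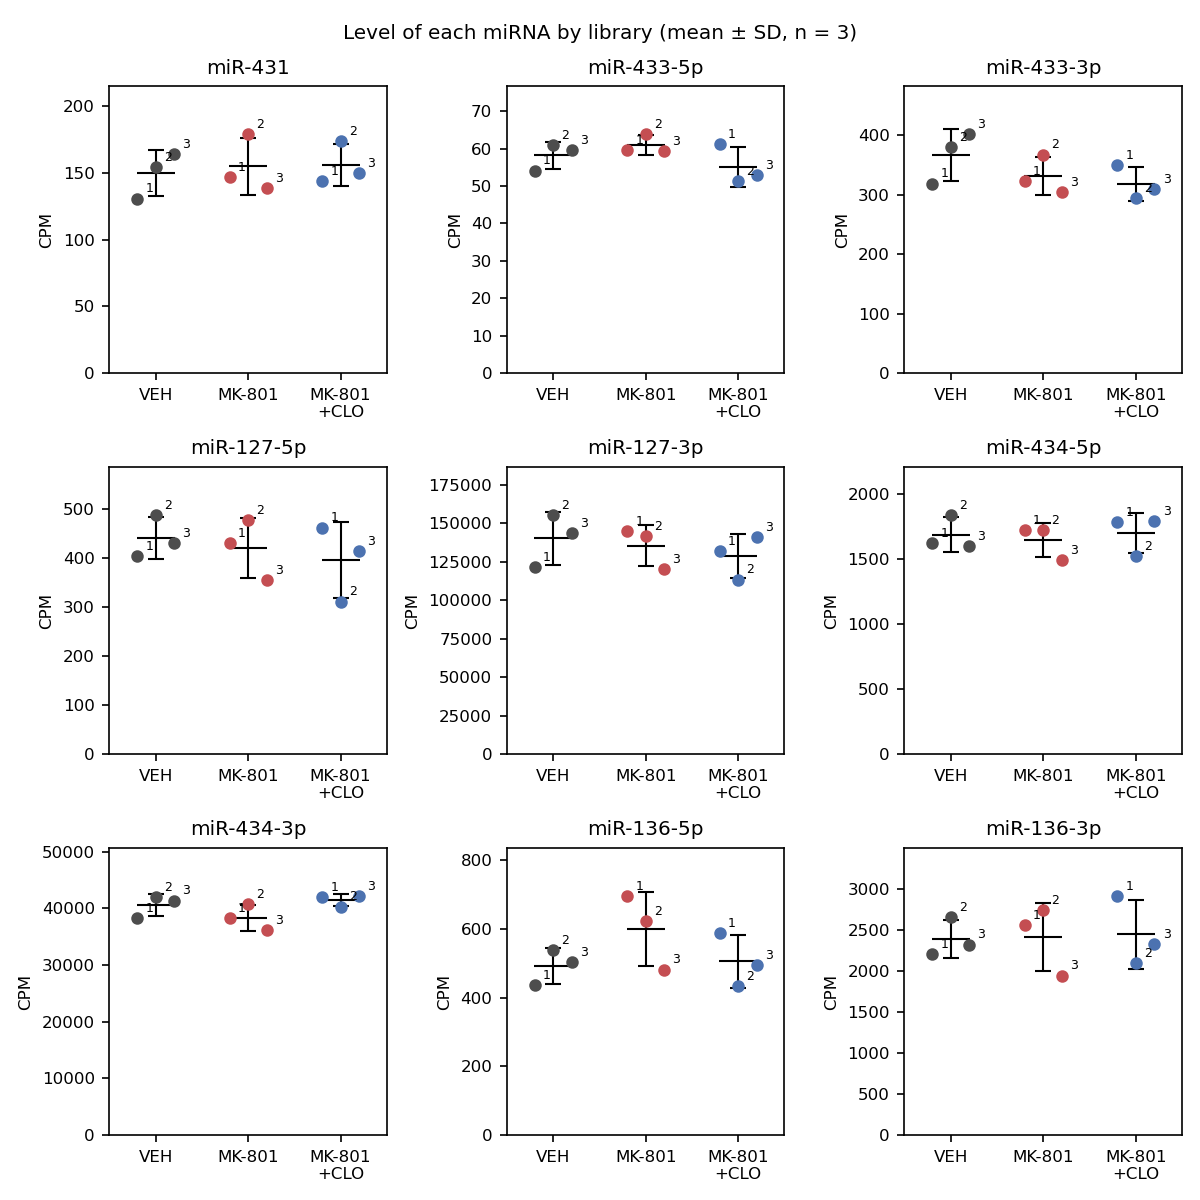
Level of each of the 9 miRNAs in CPM (linear axes from 0) in the 3 groups. Each coloured point is a library, numbered by replicate, and black bars give mean ± SD (n = 3). The 3 groups overlap in every panel.

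Whether these miRNAs differed after 14 days of NMDA receptor blockade and 7 days of saline was addressed by MK-801 against VEH. Levels during the MK-801 course itself are not covered by this comparison. The most abundant members did not differ beyond the spread between libraries. Of the 9 members, 4 lay higher and 5 lower, with a median log2 fold change of -0.015 against -0.018 over all 469 miRNAs tested. No member passed in edgeR's quasi-likelihood test after Benjamini-Hochberg adjustment over the 469, where 0% of all miRNAs passed. At an unadjusted p under 0.05 there were 0 of 9 members, beside 5.12% of all miRNAs. DESeq2 called 1 of all miRNAs and 0 members, and limma voom called 0 members. The group levels overlapped for all 9 members, while 13.9% of all miRNAs had groups that did not overlap.

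Fold changes below are log2 values ± SE from that fit, with a 95% interval of the fold. MiR-127-3p was at -0.03 ± 0.11, a fold of 0.980 with an interval of 0.822 to 1.17. MiR-434-3p was at -0.06 ± 0.07, a fold of 0.960 (interval 0.860 to 1.07). Changes of these miRNAs larger than those bounds lie outside the intervals, and smaller ones could not be told from 0. The member farthest from 0 was miR-136-5p at 0.31 ± 0.15, a fold of 1.24 (interval 0.985 to 1.55), with an unadjusted p of 0.0643 and an adjusted p of 0.814. It fell to 0.17 without MK-801 replicate 1 and reached 0.43 without MK-801 replicate 3. Its partner miR-136-3p was at 0.03 ± 0.14. The remaining members ran from -0.13 ± 0.11 for miR-433-3p to 0.09 ± 0.10 for miR-433-5p.

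Clozapine given after MK-801 was then set against MK-801 followed by saline, to see its effect on the 9 miRNAs. Again 4 of 9 members lay higher and 5 lower, with a median of -0.020 against -0.0044 over all 469. No member passed the adjusted test in edgeR, in DESeq2 or in limma voom, beside 0% of all miRNAs in edgeR and 2 miRNAs in DESeq2. At an unadjusted p under 0.05, edgeR had 0 of 9 members and 8.32% of all miRNAs. The levels of the groups overlapped for all 9 members, against 11.5% of miRNAs whose groups did not overlap. MiR-434-3p was farthest toward the threshold at 0.15 ± 0.07, a fold of 1.11 (interval 0.998 to 1.24), with an adjusted p of 0.573. Its unadjusted p was 0.0536 in edgeR and ran from 0.0365 in DESeq2 to 0.645 with upper-quartile factors, where the log2 fold change was 0.044. MiR-136-5p, which had lain above VEH in MK-801, was at -0.21 ± 0.15 (fold 0.865, interval 0.689 to 1.09). Leaving out MK-801 replicate 1 gave -0.068, and leaving out MK-801 replicate 3 gave -0.33. This comparison and the one with VEH share the MK-801 libraries, so the 2 values of miR-136-5p are not independent. MiR-127-3p was at -0.03 ± 0.11 (fold 0.978, interval 0.820 to 1.17).

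The last comparison was of both drugs in sequence with saline alone, MK-801+CLO against VEH. Here 5 of 9 members lay higher and 4 lower, with a median of 0.072 against 0.0034 over all 469. In edgeR 0 members passed the adjusted test, as did 0% of all miRNAs, and DESeq2 called 11 miRNAs but 0 members. Limma voom called 0 members. At an unadjusted p under 0.05 there were 0 of 9 members, beside 14.9% of all miRNAs, the highest background of the 3 comparisons. Group levels did not overlap for 0 of 9 members and for 17.5% of all miRNAs. MiR-433-3p was at -0.15 ± 0.11 (fold 0.903, interval 0.762 to 1.07), miR-431 at 0.12 ± 0.13 and miR-434-3p at 0.09 ± 0.07. Single libraries moved all 3: miR-433-3p ran from -0.24 without VEH replicate 1 to -0.075 without VEH replicate 3. MiR-431 ran from 0.0044 without MK-801+CLO replicate 2 to 0.20 without MK-801+CLO replicate 1, and miR-434-3p from 0.046 without MK-801+CLO replicate 3 to 0.12 without VEH replicate 2. MiR-127-3p was at -0.06 ± 0.11, a fold of 0.959 with an interval of 0.804 to 1.144.

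**Figure D3:**
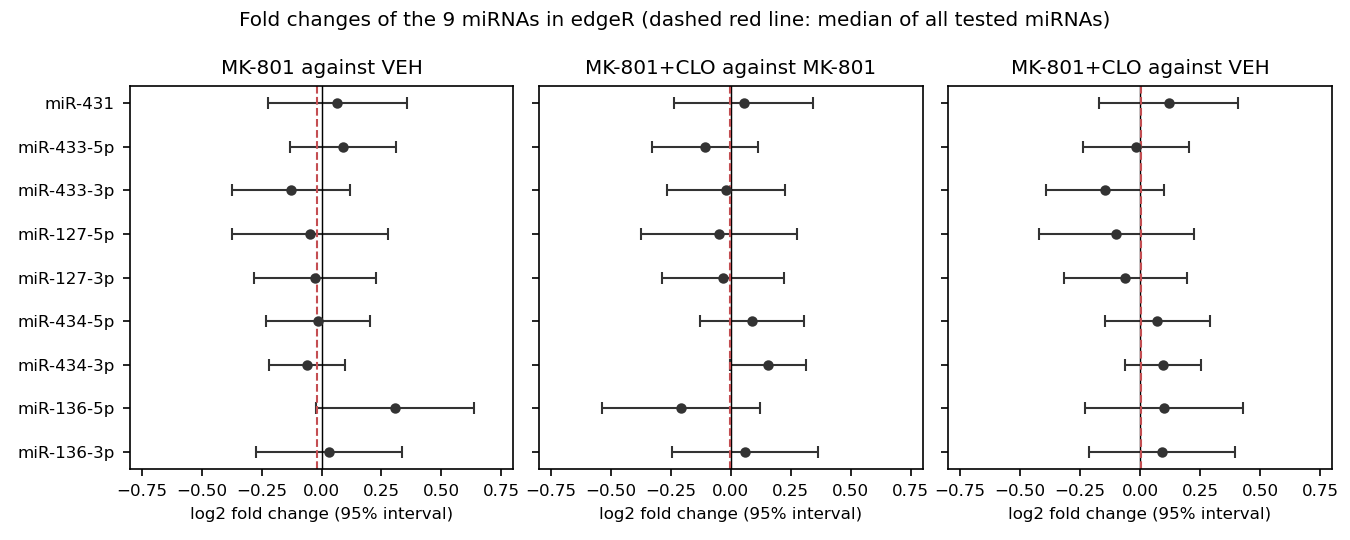
Log2 fold change of the 9 miRNAs (points) with 95% intervals (bars) in edgeR, for the 3 comparisons, with the median of all 469 miRNAs as a dashed line. Every interval includes 0, and miR-136-5p in MK-801 against VEH lies farthest out at 0.31.

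The ratio of both arms of a hairpin is taken within a library and does not depend on scaling between libraries. It could be formed for 4 hairpins, since miR-431 has 1 row. The 3p arm was the major one in all 4, but to very different degrees. There were 287 to 365 counts of miR-127-3p for each of miR-127-5p, 22.2 to 26.4 for miR-434, 5.13 to 6.76 for miR-433 and 3.67 to 5.07 for miR-136. The 4 ranges did not overlap.

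For miR-136 the ratio was 5.07, 4.94 and 4.62 in VEH, 3.67, 4.41 and 4.04 in MK-801, and 4.96, 4.85 and 4.70 in MK-801+CLO. All 3 MK-801 libraries lay below all 6 others. The 3p share of the hairpin's counts was 83.0% ± 0.681 in VEH, 80.1% ± 1.47 in MK-801 and 82.9% ± 0.387 in MK-801+CLO (SD, n = 3 each). The 2-sided exact permutation test gave p = 0.1 for MK-801 against VEH and p = 0.1 for MK-801+CLO against MK-801. That is the smallest value 3 against 3 libraries allow, and the adjusted value over 12 tests of 4 hairpins and 3 comparisons was 0.3 by the same exact test. Among all 146 hairpins with both arms tested, 17.1% had ratios whose groups did not overlap in MK-801 against VEH. The share was 11% in MK-801+CLO against MK-801, so a gap between 2 groups was not rare. How many hairpins had all 3 MK-801 libraries on one side of all 6 others was not counted.

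A limma fit across those 146 hairpins was added after the arm shares were seen. In it the log2 ratio of miR-136 differed by -0.27 ± 0.09 (SE) in MK-801 against VEH, with an interval of -0.46 to -0.085. The unadjusted p was 0.00726 and the adjusted p was 0.332 in limma, where 8.9% of hairpins had an unadjusted p under 0.05. In MK-801+CLO against MK-801 the difference was 0.26 ± 0.09, with an unadjusted p of 0.00938 and an adjusted p of 0.261, beside 10.3% of hairpins. In MK-801+CLO against VEH it was -0.011 ± 0.088. The difference did not pass the test, and both contrasts rest on the same MK-801 libraries. Leaving out each library in turn kept it between -0.34 and -0.21 against VEH and between 0.20 and 0.33 for clozapine against MK-801. Over these fits and one with a replicate block, the adjusted p in limma ran from 0.234 to 0.777 and from 0.246 to 0.716.

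For miR-433 the ratio was 5.89, 6.24 and 6.76 in VEH, 5.41, 5.75 and 5.13 in MK-801, and 5.73, 5.72 and 5.87 in MK-801+CLO. Each VEH library lay above each drug library, though VEH replicate 1 exceeded MK-801+CLO replicate 3 only narrowly. How many hairpins had such a gap between VEH and both drug groups was not counted. The log2 ratio differed by -0.21 ± 0.10 in MK-801 against VEH (adjusted p = 0.573 in limma) and by -0.12 ± 0.10 in MK-801+CLO against VEH (adjusted p = 0.591 in limma). The exact permutation p was 0.1 in both, and in MK-801+CLO against VEH 15.8% of all hairpins had groups that did not overlap, 14.4% an unadjusted p under 0.05 and 0.685% (miR-15b alone) an adjusted one. Ratios of miR-127 and miR-434 overlapped between all groups, at 319 ± 16.4, 325 ± 23.7 and 331 ± 40.4 for miR-127 and at 24.1 ± 1.58, 23.3 ± 1.01 and 24.5 ± 1.67 for miR-434 (SD, n = 3, in VEH, MK-801 and MK-801+CLO).

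**Figure D4:**
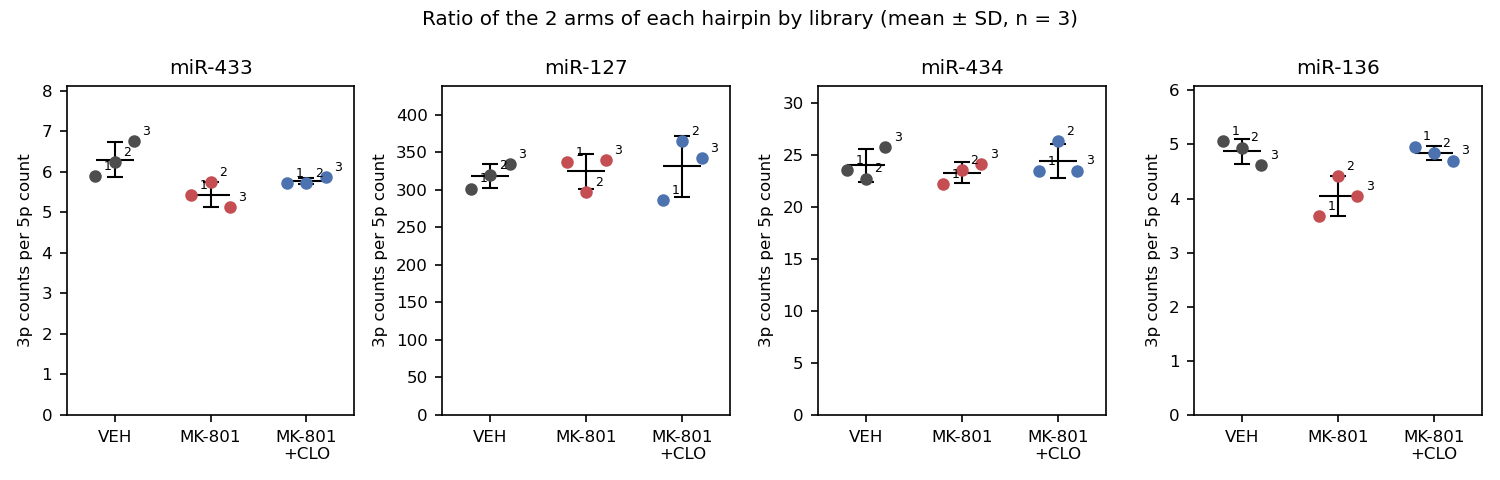
Counts of the 3p arm per count of the 5p arm for 4 hairpins by library (linear axes from 0). Points are libraries with their replicate number and bars the mean ± SD (n = 3). For miR-136 the 3 MK-801 libraries, at 3.67 to 4.41, lie below the other 6, at 4.62 to 5.07.

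Within each group the members tended to be low in the same library. VEH replicate 1 had the lowest CPM of its group for 8 of 9 members, MK-801 replicate 3 for 9 of 9 and MK-801+CLO replicate 2 for 8 of 9. The exceptions were miR-434-5p in VEH and miR-431 in MK-801+CLO. After TMM scaling the counts were 8, 8 and 7 of 9. The median member then stood at 0.923, 0.927 and 0.901 of its mean over the 9 libraries in these 3 libraries, and at 1.01 to 1.06 in the other 6. How many of all 469 miRNAs were lowest in the same 3 libraries was not counted. The pattern therefore cannot be called particular to the members. Across the 9 libraries, 27 of 32 pairs of members from different hairpins and all 4 pairs from the same hairpin had a positive Pearson r of log2(TMM-scaled CPM + 1). The median r was 0.36 for the 32 pairs and 0.66 for the 4 pairs, and 0.0024 over all pairs of the 469 miRNAs. The 469 include miRNAs with a mean under 10 CPM, while every member lay above it, so depth differs between these sets. These values describe 9 libraries that share scaling and groups. MiR-431 followed the others least, with r from -0.27 to 0.41.

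The 3 oligodendrocyte miRNAs miR-219a-2-3p, miR-219a-5p and miR-338-3p tended to move the other way. All 3 were above 0 in every library, and their sum was 3686 to 4910 CPM in VEH, 3811 to 6184 CPM in MK-801 and 3738 to 5925 CPM in MK-801+CLO. It was 4910, 6008 and 5925 CPM in the 3 libraries with low members, the highest of its group for VEH and MK-801+CLO, while MK-801 replicate 2 had the group's highest sum. Pearson r between this sum and miR-127-3p was -0.63 over the 9 libraries on log2(CPM + 1), the farthest from 0 of the cell type lists scored. Red blood cells were at 0.35, microglia and leukocytes at -0.30, neurons at 0.27 and vessels at -0.22. Most of the red blood cell sum was miR-486, at 2671 to 3524 CPM. Most of the microglia and leukocyte sum was miR-150-5p, at 699 to 1021 CPM, and most of the vessel sum was miR-143-3p. These r values thus stand mainly for 1 miRNA of each list. The r of the less abundant miRNAs was not computed and could differ. Choroid plexus and ependyma were at 0.095, and muscle, liver and endocrine tissue at -0.063. The part of the oligodendrocyte sum in the spread of the members was not tested. In such bulk tissue, fewer cells of a type and less RNA per cell cannot be told apart.

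**Figure D5:**
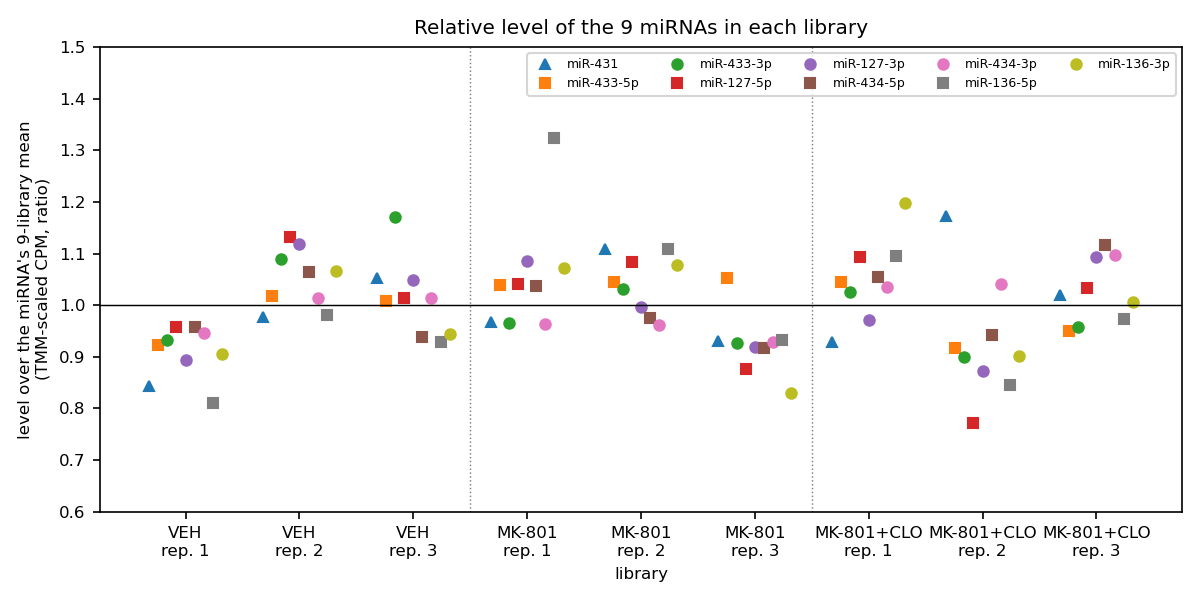
Level of each of the 9 miRNAs in each library, as TMM-scaled CPM over its mean in the 9 libraries (ratio, linear axis). VEH replicate 1, MK-801 replicate 3 and MK-801+CLO replicate 2 have medians of 0.923, 0.927 and 0.901, below 1, within 3 different groups.

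Among 324 other miRNAs with a mean of at least 10 CPM, miR-758-3p was most like the mean pattern of the 9 members, with a Pearson r of 0.92 over the 9 libraries. It was followed by miR-708-3p (0.87), miR-382-3p (0.86), miR-300-3p (0.83) and miR-335 (0.80). Of these 5, 3 belong to the lists of other Dlk1-Dio3 miRNAs, which made up 17% of the 324. For miR-127-3p alone the most similar were miR-758-3p (0.85), miR-374-3p (0.82), miR-384-3p (0.77), miR-330-5p (0.77) and miR-874-3p (0.76). For miR-434-3p they were miR-668 (0.91), the joint row of miR-3084a-3p with miR-3084b-3p and miR-3084d (0.89), miR-148a-3p (0.85), miR-30d-3p (0.84) and miR-652-3p (0.81). In each of these sets of 5, 1 was a Dlk1-Dio3 miRNA. With deviations from the group means in place of levels, 2, 1 and 1 of the 5 stayed among the nearest 5 for the mean pattern, miR-127-3p and miR-434-3p. With library totals in place of TMM scaling, 4, 3 and 1 stayed, so the set for miR-434-3p depended on the scaling.

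The neighbours in the region were described by lists of numbers. On the Meg3 side, 11 miRNAs were tested and 0 passed in any comparison, with 8 of 11 lower in MK-801 than in VEH. The 4 between Rtl1 and the miR-379 to miR-410 cluster also had 0 calls. Of 68 listed for the miR-379 to miR-410 cluster, 66 lay between Dlk1 and Dio3 in RefSeq. MiR-3580-3p lay on chromosome X, and miR-3072 was not matched. Of the 59 tested, 0 passed, with 21 higher and 38 lower in MK-801 against VEH. Clozapine against MK-801 gave 27 higher and 32 lower, and both drugs against VEH gave 17 higher and 42 lower. Of all 469 miRNAs, 46.5%, 48.8% and 50.1% were higher in these comparisons. At an unadjusted p under 0.05 the 74 neighbours had 3, 1 and 4 members in the same order of comparisons, beside 5.12%, 8.32% and 14.9% of all 469 miRNAs. The summed CPM of the miR-379 to miR-410 list ran from 19499 to 26123 and had a Pearson r of 0.86 with the members' sum over the 9 libraries. For the Meg3 side r was 0.68, and for the list between it was 0.71. These r are of CPM sums without logs or TMM scaling, and sums of other miRNAs were not set beside them.

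Neighbours fixed by name gave similar values. MiR-410-3p, at the far end of the miR-379 to miR-410 cluster and its most abundant fixed member here at 7720 CPM, was at 0.06 ± 0.16 in MK-801 against VEH and at -0.07 ± 0.16 in MK-801+CLO against VEH. MiR-541-5p, at 2225 CPM, was at -0.17 ± 0.08 and -0.18 ± 0.08 in those comparisons (adjusted p = 0.814 and 0.288 in edgeR). MiR-134-5p, a regulator of dendritic spines, was at -0.13 ± 0.15 and -0.25 ± 0.15. MiR-379-5p (0.06 ± 0.19 and 0.02 ± 0.19), miR-382-5p (-0.06 ± 0.14 and -0.18 ± 0.14) and miR-370-3p (-0.08 ± 0.13 and -0.19 ± 0.13) did not pass either. On the Meg3 side, miR-337-5p was at -0.06 ± 0.10 and -0.06 ± 0.10, miR-337-3p at -0.18 ± 0.20 and -0.38 ± 0.20, miR-540-3p at -0.16 ± 0.13 and -0.21 ± 0.13 and miR-665 at -0.04 ± 0.22 and 0.0074 ± 0.22.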

How the data were processed

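Small RNA was sequenced from rat hippocampus in 9 libraries, and groups and replicate numbers come from their titles. The authors deposited whole-number counts of each mature miRNA in 1 table, next to columns headed TPM. These deposited values equal CPM, each count over its library total (largest relative difference 0.000473%). The build Rnor_6.0 and the tools Bowtie, cutadapt 1.14 and DESeq appear, without roles, in the submitters' processing notes. How reads matching several miRNAs were counted is not given there or in the labels. The 21 blank lines were dropped and 1 name split over lines was rejoined. Sequences and positions come from RefSeq tables of GRCr8, a different build from the one named.

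The main test of the counts was edgeR 4.0.16 (R 4.3.3) with filterByExpr (469 miRNAs kept), TMM factors, all 9 libraries, 1 mean per group, and Benjamini-Hochberg adjustment at 0.05. SE is the absolute log2 fold change over the square root of F, and 95% intervals use the fit's degrees of freedom. Arm ratios were tested by exact permutation in SciPy 1.17.1 and, as a test added after the arm shares were seen, by limma 3.58.1 on log2 ratios over all hairpins with both arms. The code was tested on simulated counts. A library's counting error is small at these depths (95% Wilson interval of miR-433-5p in MK-801+CLO replicate 2: 47.3 to 55.9 CPM at 51.4 CPM), and such intervals cover counting error only. None of the 9 pairs of libraries within a group agreed within sampling noise.

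The members, lists, rules for named miRNAs and tests were chosen with earlier results of these data known. Named miRNAs are all members, the 5 miRNAs most like each of 3 reference patterns, and 10 fixed neighbours. The members' fold changes and the counts of calls were recomputed with limma voom, DESeq2 1.42.0, limma-trend on log2(CPM + 1), RLE, upper-quartile and no factors, scaling without the members, no filter, at least 10 CPM, a replicate block, only the groups compared, and each library left out. Arm ratios in limma were recomputed only with the replicate block and with each library left out. The 3p shares were recomputed only with libraries left out. Likeness of patterns was recomputed only with library totals and with deviations from the group means.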

Additional observations from a re-analysis of the deposited data

How the results depend on the processing

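Of 540 recomputed log2 fold changes of members, 504 kept their direction and their side of the threshold and 36 changed sign, all of them small values, and no member passed an adjusted p of 0.05 in any. With upper-quartile factors, which moved the median of all miRNAs from -0.018 to 0.074 in MK-801 against VEH and from -0.0044 to -0.12 in MK-801+CLO against MK-801, the sign changed for miR-127-3p (0.067), miR-127-5p (0.044), miR-434-3p (0.033) and miR-434-5p (0.079) in the former and for miR-136-3p (-0.057), miR-431 (-0.047) and miR-434-5p (-0.026) in the latter. Members higher then numbered 8 and 1 of 9 in these comparisons. MiR-434-5p in MK-801 against VEH was at 0.0017 when scaled without the members and at 0.0084 with at least 10 CPM. MiR-433-5p in MK-801+CLO against VEH was at 0.0024 when scaled without the members.

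At an unadjusted p under 0.05, 1 member (miR-136-5p, MK-801 against VEH) appeared with DESeq2, with upper-quartile factors and when scaled without the members. In MK-801+CLO against MK-801, 1 member (miR-434-3p) appeared with DESeq2 and 1 with RLE factors, and 2 (miR-136-5p and miR-433-5p) with upper-quartile factors. Among all miRNAs, DESeq2 called 1, 2 and 11 at an adjusted p under 0.05 in MK-801 against VEH, MK-801+CLO against MK-801 and MK-801+CLO against VEH, where edgeR called 0.

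Each library was left out in turn. In MK-801 against VEH the log2 fold change then ran from -0.14 to 0.048 for miR-127-3p, -0.12 to 0.041 for miR-127-5p, -0.041 to 0.15 for miR-136-3p, -0.038 to 0.14 for miR-431 and -0.063 to 0.047 for miR-434-5p. In MK-801+CLO against MK-801 it ran from -0.12 to 0.045 for miR-127-3p, -0.15 to 0.085 for miR-127-5p, -0.057 to 0.14 for miR-136-3p, -0.043 to 0.13 for miR-431 and -0.068 to 0.021 for miR-433-3p. In MK-801+CLO against VEH it ran from -0.17 to 0.018 for miR-127-3p, -0.19 to 0.019 for miR-127-5p, -0.025 to 0.17 for miR-136-3p, -0.070 to 0.014 for miR-433-5p and -0.0063 to 0.14 for miR-434-5p. Others kept their sign but moved by over 1.5 times: miR-433-3p (-0.23 to -0.053), miR-433-5p (0.025 to 0.12) and miR-434-3p (-0.11 to -0.038) in MK-801 against VEH, miR-433-5p (-0.16 to -0.072) and miR-434-5p (0.028 to 0.15) in MK-801+CLO against MK-801, miR-136-5p in MK-801+CLO against VEH (0.0058 to 0.17), and those given with their ranges above. Members at an unadjusted p under 0.05 ranged from 0 to 1 in MK-801 against VEH (miR-136-5p without MK-801 replicate 3) and in MK-801+CLO against VEH (miR-433-3p without VEH replicate 1). Over all miRNAs, calls at an adjusted p ran from 0 to 1 (without MK-801 replicate 2), 0 to 2 and 0 to 7 (both without MK-801+CLO replicate 2) in the 3 comparisons, and those at an unadjusted p from 15 (without VEH replicate 3) to 37 (without MK-801 replicate 2), 18 (without MK-801+CLO replicate 3; 23 without MK-801 replicate 1) to 52, and 34 (without MK-801+CLO replicate 3; 38 without VEH replicate 3) to 84. The log2 arm ratio ran from -0.013 to 0.088 for miR-127 and -0.083 to 0.0081 for miR-434 in MK-801 against VEH, from -0.049 to 0.13 for miR-127 in MK-801+CLO against MK-801, and from -0.024 to 0.15 for miR-127, -0.049 to 0.017 for miR-136 and -0.032 to 0.076 for miR-434 in MK-801+CLO against VEH. The difference in 3p share, in percentage points, ran from -0.0032 to 0.019 for miR-127 and -0.220 to 0.020 for miR-434 in MK-801 against VEH, from -0.011 to 0.026 for miR-127 in MK-801+CLO against MK-801, and from -0.0061 to 0.031 for miR-127, -0.483 to 0.174 for miR-136 and -0.080 to 0.200 for miR-434 in MK-801+CLO against VEH. Hairpins with an arm ratio past an adjusted p of 0.05 ran from 0 to 1, 0 to 1 and 0 to 8. The causes were not tested.

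Libraries with the same replicate number did not visibly deviate together: the correlation of their deviations from the group means ran from -0.442 to 0.256. Pairs with different numbers ran from -0.388 to 0.433. No pairing by number was seen, but with 3 libraries a group this check cannot exclude one. With the replicate block no member was called, miR-136-5p in MK-801 against VEH was at 0.29, and hairpins past an adjusted p of 0.05 for the arm ratio numbered 1, 1 and 2, none of them a member. With 3 libraries a group, only folds outside the intervals given could be told from the members' values, and depth was not limiting at 548 or more counts per member and library.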
